A study of Ixodes ricinus with 9 samples.

Results

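The comparison described here set the midguts of female *Ixodes ricinus* ticks silenced for antigen p23 against those of ticks that received an unrelated control dsRNA. It was chosen by its labels alone: the 3 libraries labelled antigen p23 and the 3 libraries labelled GFP control, which make up 6 of the 9 libraries of the study. Unfed adult females from a laboratory colony were injected either with double-stranded RNA (dsRNA) for antigen *p23* or with dsRNA for green fluorescent protein (GFP), a jellyfish protein that ticks do not have. Both groups were then fed through a membrane on bovine blood, and midguts were dissected on feeding day 7 from 9 females per group, combined into 3 pools of 3 ticks. Injection, membrane feeding and the blood meal were thus common to both groups, and the third group of the study, silenced for a metalloprotease, was not part of the comparison. Each pool was 1 library, so the spread between ticks within a pool was not measured. The sources used here do not say which gene of the table encodes antigen p23, and the level of the silenced transcript is therefore not given. The reference for read alignment was assembly BIME_Iper_1.3 of *Ixodes persulcatus*, a sister species, and gene names are those of the best Swiss-Prot matches of its genes.

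Antigen p23 is an anticoagulant protein of tick saliva and midgut. The tick midgut takes up haemoglobin and other blood proteins by endocytosis and breaks them down inside the digestive cells, in acidified vesicles that hold aspartic and cysteine proteases, while serpins and other inhibitors act against host clotting and immune proteases. In RNA interference the injected dsRNA is cut into short guides by Dicer, and argonaute proteins loaded with these guides destroy the matching transcripts. Because whole midguts were sequenced, a smaller number of cells of a type cannot be told apart from less RNA per cell.

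Antigen p23 pools 1 and 2 stood apart from the other 4 libraries before any gene was considered. Library totals were alike, from 3303358 to 3636541 counts in the antigen p23 group and from 3306565 to 4681133 in the GFP control group. The number of genes with at least 1 count was 9473, 10988 and 9410 in GFP control pools 1 to 3 and 7291, 6294 and 9136 in antigen p23 pools 1 to 3, and the 3 metalloprotease libraries had from 9589 to 10334. The group means of 7573.67 and 9957 genes gave an exact two-sided permutation p of 0.1, the smallest that 3 pools against 3 can reach. What was missing from pools 1 and 2 lay among weak genes. Genes with 1 to 9 counts numbered 1625 and 661 there, against 2880 to 3280 in GFP control and 2927 in antigen p23 pool 3. Of the 6381 genes tested below, 376 and 733 had no count in pools 1 and 2, against 3 to 15 in the other 4 libraries. Genes with no count in the pool but 10 or more in every GFP control pool numbered 281 and 579 in pools 1 and 2, against 10 in antigen p23 pool 3. The mean correlation with the GFP control pools, on log2 values across genes, was 0.863 for pool 1, 0.853 for pool 2 and 0.934 for pool 3, and the GFP control pools correlated with each other at 0.897 to 0.948. Pool 3 thus lay as near to the control pools as these lay to each other, and the medians of most gene lists are therefore also given without pools 1 and 2. That fit filtered the genes anew and tested 7810 genes. A list median without pools 1 and 2 can therefore rest on more genes than the main one. With 1 antigen p23 pool left, enough counts in a single library let a gene pass, which could be a GFP control pool. Genes added in this way can lie low in pool 3 through the filter alone. A list median that gained genes is therefore no measure of pool 3 by itself.

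**Figure D1:**
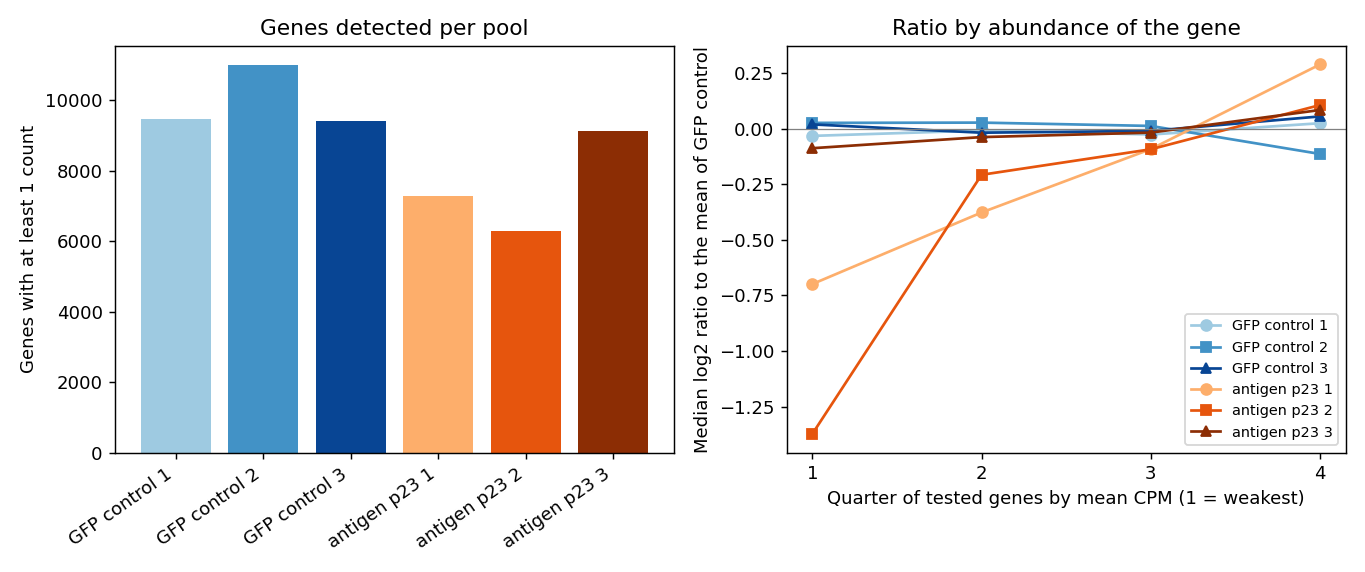
Left, number of genes with at least 1 count in each pool (bars start at 0). Right, median log2 ratio of each pool to the mean of the GFP control pools, over the tested genes divided into 4 equal classes by mean CPM (counts scaled to a common library size). In the weakest class antigen p23 pools 1 and 2 lay at -0.70 and -1.37, and in the most abundant class every antigen p23 pool lay above 0.

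The same division ran through the tested genes, which were split into 4 equal classes by mean level and, separately, by coding length. In the class with the lowest mean level, the median log2 fold change (antigen p23 over GFP control) was -0.49, and 31.1% of the genes lay above 0. In the class with the highest level the median was 0.13, and 62.3% lay above 0. For the weakest class the median log2 ratio to the control mean was -0.70, -1.37 and -0.09 in antigen p23 pools 1 to 3, and for the most abundant class 0.29, 0.11 and 0.08. Genes with a long coding sequence also stood lower: the class with the longest coding length had a median of -0.23, with -0.46, -0.18 and 0.00 in pools 1 to 3, against 0.03 in the shortest class. Level and length therefore moved with the difference between the groups, chiefly in pools 1 and 2, and their part in the results for single pathways was not tested. Over all tested genes the median log2 fold change was -0.10.

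Of 28510 genes in the table, 12129 had a count in the 6 libraries and 6381 were tested with edgeR's quasi-likelihood test. None passed an adjusted p of 0.05 (0.00% of the genes tested), and the smallest adjusted p was 0.386. Before adjustment, p was 0.05 or less for 99 genes higher (1.55%) and 109 lower (1.71%), which together are 3.26%, a share below the threshold's own 0.05. DESeq2 called 6 of 7632 genes after adjustment (0.0786%), 3 in each direction (0.0393% each), and 438 of 12001 before adjustment (3.65%). In 324 genes every antigen p23 pool lay above every GFP control pool (5.08%), and in 417 every antigen p23 pool lay below (6.54%). If the 6 pools were interchangeable, a gene would lie wholly above or wholly below with a probability of 0.1. Separation of the pools in a single gene is therefore a description and no test. These shares differed with the level of the gene: 10.8% of the most abundant class lay wholly above and 11.2% of the weakest class wholly below. The filter on low counts asked for enough counts in 3 libraries. Weak genes missing from antigen p23 pools 1 and 2 could thus be tested only where GFP control pools held enough counts. That selects weak genes that are higher in GFP control, and its part in these shares was not tested. Levels are given as CPM scaled with TMM factors, in the order of pools 1 to 3. Where levels are set against each other, GFP control comes first and antigen p23 second. Gene lists are described by counts and medians without a test of the list.

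The tissue label was checked against cell type markers. Of 61 genes listed as markers of midgut digestive cells (digestive proteases such as cathepsins and legumains), 36 had a count and 22 were tested, and their summed level ran from 2321 to 3742 CPM in GFP control and from 3959 to 6653 CPM in antigen p23. Every antigen p23 pool lay above every control pool in that sum, and its part in the results below was not tested. Muscle markers, from a tissue that surrounds the gut, summed to 1495 to 2520.2 CPM in GFP control and 2281 to 2646 CPM in antigen p23, with 3 of 22 genes at 0 throughout. Markers of nerve were near absent, at 2.47 to 46.2 CPM in the sum of 11 genes, 4 of them at 0 throughout, the highest sum being that of antigen p23 pool 1. The list for fat body and ovary reached 23836 to 86162 CPM in GFP control and 32460.0 to 59039.9 CPM in antigen p23, most of it in every pool from 1 vitellogenin match (HPB47_012779), a protein of the family of yolk precursors. That gene had 45876, 16310.5 and 59448 CPM in GFP control and 20601, 31265 and 35787 CPM in antigen p23. It had the most counts of all genes over the 6 libraries, the groups overlapped, and vitellogenin-like haem and lipid carriers are also made outside the fat body in ticks, so the list does not separate these tissues.

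The genes with the smallest p values came from many families. The carboxylesterase-family gene matched to neuroligin-2 (HPB47_012061) had 3.45, 2.24 and 2.76 CPM in GFP control and 37.7, 7.29 and 75.7 CPM in antigen p23. Every antigen p23 pool was higher, but pool 2 by much less than pools 1 and 3, and the adjusted p was 0.964 in edgeR, 0.00278 in DESeq2 and 0.00324 in edgeR without the filter on low counts. The lysosomal protective protein match (HPB47_005579), the serine carboxypeptidase cathepsin A, had 72.04, 175 and 95.2 against 304, 553 and 262 CPM (log2 fold change 1.71, SE 0.43). It was wholly higher, and edgeR called it only without the filter (adjusted p = 0.0378). HPB47_013047, a gene with neither a Swiss-Prot match nor a Pfam domain, had 45.8, 66.7 and 58.03 against 241, 170.3 and 145 CPM and was called by DESeq2 alone (adjusted p = 0.0202). The chitinase-3-like match (HPB47_003950) had 282, 230.7 and 294 against 496, 795 and 759 CPM, and the matched folate enzyme 5-formyltetrahydrofolate cyclo-ligase (HPB47_000688) 45.8, 53.5 and 46.98 against 141, 119 and 80.3 CPM. Among genes lower in every antigen p23 pool, the match to the extracellular calcium-sensing receptor (HPB47_006483) had 251, 294 and 177 against 122, 78.7 and 78.1 CPM. HPB47_013925, whose best match is cyclic nucleotide-gated cation channel alpha-3, reached 38, 16 and 20 counts in GFP control and none in antigen p23. That is at least 17.7-fold lower when 3 counts over the group are taken as the floor, a bound that leaves out the spread between pools. The adjusted p was 0.964 in edgeR. The cationic amino acid transporter 4 match (HPB47_020148) had 75.03, 41.4 and 14.4 against 9.24, 1.75 and 9.26 CPM, and the monocarboxylate transporter 14 match (HPB47_002496) 175, 47.5 and 90.6 against 37.3, 9.33 and 30.9 CPM. In both transporters antigen p23 pool 2 was the lowest.

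Genes of protein synthesis stood higher after antigen p23 silencing. Ribosomal proteins, the building blocks of the cytosolic ribosome, had 48 tested members of 72 in the table. In 46 of the 48 the log2 fold change was above 0, against 44.0% of all genes tested. In 14 (29.2%) every antigen p23 pool lay above every control pool, against 5.08% of all genes tested and 10.8% of the most abundant class. None lay wholly below. Their median log2 fold change was 0.39, and the median ratio in pools 1 to 3 was 0.76, 0.18 and 0.21. Ribosomal protein L5 (HPB47_006933), which binds 5S ribosomal RNA in the large subunit, had 11939.8, 11896 and 13116 CPM in GFP control and 23112, 18793 and 15641 CPM in antigen p23 (log2 fold change 0.64, SE 0.28). The gene lies on scaffold JABSTQ010011012.1 from 492079 to 492972 and was among the 3 most abundant annotated genes per kilobase of coding length. Large subunit proteins L7a (HPB47_023870), at 586, 609 and 659 against 1091, 903 and 809 CPM, and L10a (HPB47_026515), at 508, 531 and 535 against 1167, 667 and 662 CPM, had the same order of pools. In each of these 3 genes the groups did not overlap and pool 1 was the highest, with pool 3 nearest to the controls. In summed level, the 72 ribosomal protein genes took 56156 to 68531 CPM in GFP control and 109548, 76276 and 71955 CPM in the antigen p23 pools. Of the tested members, 37 belonged to the most abundant class and 33 to the shortest class, the classes that stood higher as a whole, and the part of level and length in the list's shift was not tested. Without pools 1 and 2 the median was 0.21, and over all alternatives tried it ran from 0.20 to 0.52.

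Translation factors showed the same picture. Of 38 tested, 31 lay above 0, at a median log2 fold change of 0.32. Wholly above the control pools were 11 (28.9%, against 5.08% of all genes tested and 10.8% of the most abundant class), with none wholly below. The initiation factor eIF5B (HPB47_020564), which joins the ribosomal subunits, had 113, 76.8 and 92.7 CPM in GFP control and 187, 169 and 131 CPM in antigen p23 (log2 fold change 0.79, SE 0.31). Elongation factor 1-gamma (HPB47_021698), a subunit of the complex that recharges elongation factor 1-alpha, had 8995, 7457 and 8993 against 14476, 10042 and 10566 CPM, and elongation factor 2 (HPB47_012633), which moves the ribosome along the message, had 11166, 9655 and 11456 against 17132, 12665 and 12365 CPM. All 3 were higher in every antigen p23 pool. The initiation factor 4 gamma 2 match (HPB47_011654), a relative of the scaffold that recruits the ribosome, stood lower instead, with 1114, 1059 and 629.7 against 701, 597 and 511 CPM, and its groups overlapped. The median of this list was 0.22 without pools 1 and 2 and 0.19 to 0.39 over the alternatives, and 20 of its members were in the most abundant class.

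In the secretory pathway, all 16 tested genes of translocation into the endoplasmic reticulum and of N-glycosylation had a log2 fold change above 0, with a median of 0.34. Of these, 4 were wholly above the controls (25%, against 5.08% of all genes tested and 10.8% of the most abundant class), and 8 belonged to that class. SRP68 (HPB47_010051), a subunit of the signal recognition particle that brings ribosomes to the membrane, had 104, 99.99 and 108 CPM in GFP control and 181, 223 and 149 CPM in antigen p23 (log2 fold change 0.83, SE 0.29). The signal recognition particle receptor subunit match HPB47_025694 had 45.1, 42.1 and 40.8 against 72.9, 72.9 and 55.9 CPM. Both genes were higher in every antigen p23 pool, pool 3 included. SEC63 (HPB47_005169), a membrane chaperone partner of the translocation channel counted among the chaperones, had 673, 647 and 792 against 1008, 1069.7 and 871 CPM, again without overlap. For the 16 genes the median ratio was 0.70, 0.16 and 0.34 in pools 1 to 3, and the median without pools 1 and 2 was 0.33.

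The other lists of protein production and turnover were higher by less or less evenly. Among 26 aminoacyl-tRNA synthetases, which charge tRNAs with amino acids, 21 lay above 0 at a median of 0.34 (0.20 without pools 1 and 2), but none was wholly above the controls. Among 37 mitochondrial ribosomal proteins 23 lay above 0 at a median of 0.14 (0.15 without pools 1 and 2). Of the 37, 5 were wholly above (13.5%, against 5.08% of all genes tested and 10.8% of the most abundant class). One of these was the gene matched to mitochondrial L24 (HPB47_017850), with 186, 123 and 174 CPM in GFP control and 236, 259 and 295 CPM in antigen p23 (log2 fold change 0.71, SE 0.29). Its pool 3 was the highest of the 6 libraries. Of 30 tested proteasome subunits, which form the protease that breaks down ubiquitin-tagged proteins, 27 lay above 0. Wholly above the controls were 3 (10%, against 5.08% of all genes tested and 10.8% of the most abundant class). The median over the 30 genes was 0.44. That median rested on pool 1: the ratios were 0.87, 0.28 and 0.10 in pools 1 to 3, and the median without pools 1 and 2 was 0.02. Subunit alpha type-3 (HPB47_000885) had 755, 573 and 958 against 1365, 1015 and 973 CPM, so pool 3 exceeded the highest control pool only narrowly.

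**Figure D2:**
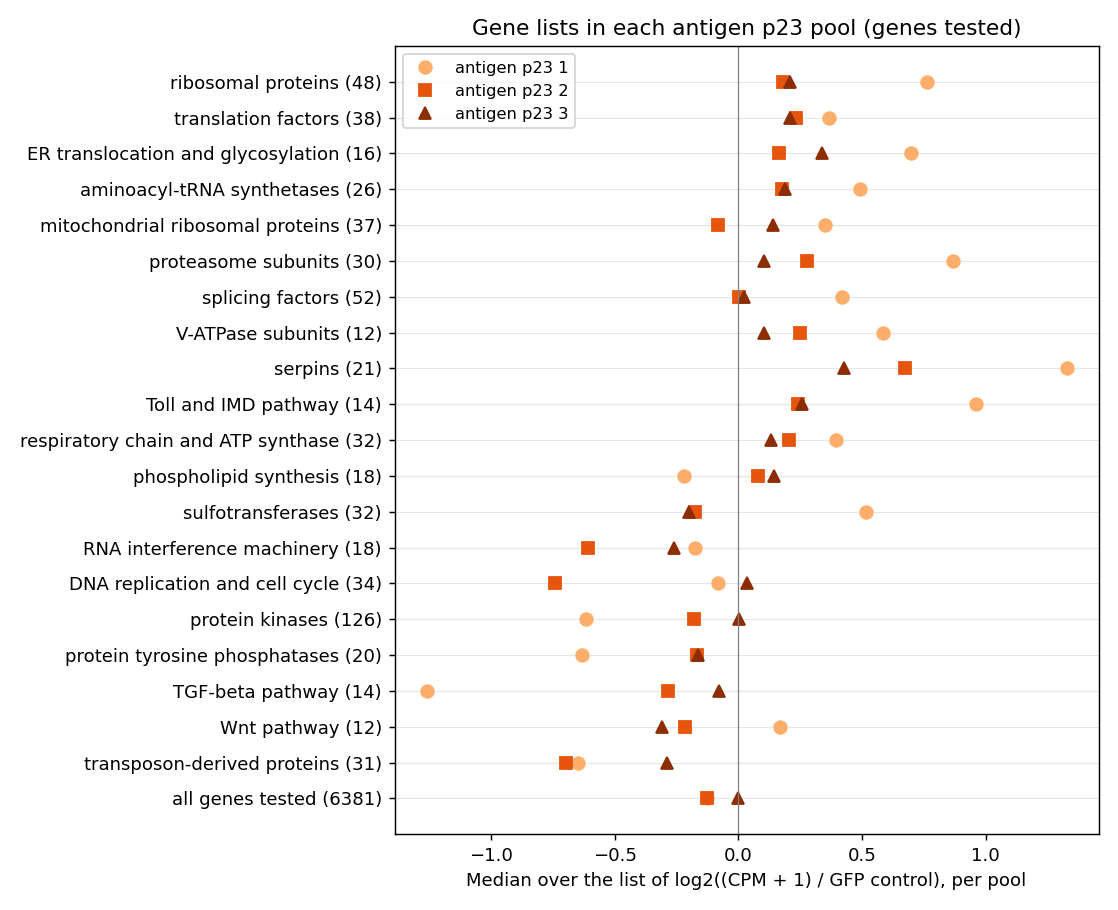
Median over each gene list of the log2 ratio of an antigen p23 pool to the mean of GFP control, 1 point per pool, with the number of tested genes in brackets. Ribosomal proteins, translation factors, translocation genes and serpins lay above 0 in all 3 pools, and the list of protein tyrosine phosphatases lay below 0 in all 3, with pool 1 the most extreme for most lists.

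Chaperones were split. Of 44 tested heat shock proteins and chaperones, 23 lay above 0 and 21 below, at a median of 0.05 (0.08 without pools 1 and 2). Wholly above the controls were 8 (18.2%, against 5.08% of all genes tested and 10.8% of the most abundant class). Wholly below were 3 (6.82%, against 6.54% of all genes tested). The beta subunit of the cytosolic chaperonin that folds actin and tubulin (HPB47_000471) was among the 8 and had 109.8, 71.3 and 88.1 CPM in GFP control and 132, 126 and 133 CPM in antigen p23. The small heat shock protein match HPB47_010372, of the crystallin family that holds unfolded proteins, was at the other end with 18.9, 27.1 and 6.14 against 2.40, 0.583 and 1.54 CPM (log2 fold change -3.52, SE 0.88). Its coding sequence of 492 bases lies on scaffold JABSTQ010011343.1 from 491004 to 491495. The Hsp70 family member matched to heat shock protein 68 (HPB47_010377) had 336, 72.9 and 5.22 CPM in GFP control and 5.82, 5.25 and 6.18 CPM in antigen p23. This gene was high in a pair of the control pools only, and GFP control pool 3 was as low as the antigen p23 pools, so the groups overlapped. DESeq2 nevertheless called it (adjusted p = 0.00197), while edgeR did not (adjusted p = 0.964).

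**Figure D3:**
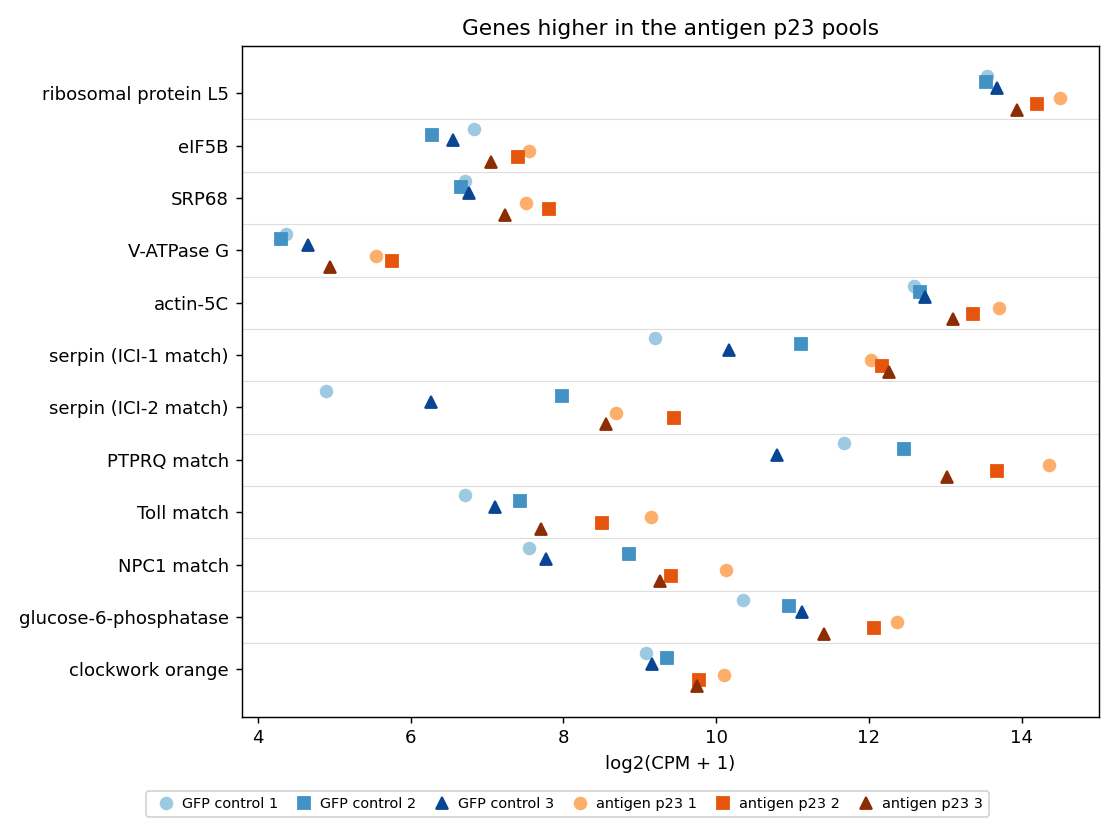
Level of 12 genes in each pool, as log2(CPM + 1), with GFP control pools in blue and antigen p23 pools in orange to brown. For each gene shown every antigen p23 pool lay above every control pool, and antigen p23 pool 3 lay nearest to the controls in most.

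Serpins, the serine protease inhibitors that ticks use against clotting and inflammation, were the inhibitor family with most tested genes. Of 71 genes in the table, 31 had a count and 21 were tested, with 18 above 0, at a median log2 fold change of 0.58. Wholly above the controls were 4 (19.0%, against 5.08% of all genes tested and 10.8% of the most abundant class, which held 9 of the 21). Of these 4, HPB47_027205 is a gene model that joins a serpin domain to ion channel and ankyrin domains. Its best match is short transient receptor potential channel 4. Wholly below was 1 (4.76%, against 6.54% of all genes tested). The summed level of the family was 15853, 23406 and 20328 CPM in GFP control and 32616, 32934 and 35227 CPM in antigen p23. In this sum all 3 antigen p23 pools lay close together and above all control pools. Most of it in every pool came from HPB47_027208 and HPB47_012019, described below, whose groups overlapped. Antigen p23 pool 1 was the highest of the antigen p23 pools in the first gene and the lowest in the second. The likeness of the pools in the sum therefore does not hold for its main genes. HPB47_008072, matched to horseshoe crab intracellular coagulation inhibitor 1 and lying on scaffold JABSTQ010011150.1 from 877406 to 878806, had 586, 2217 and 1154 CPM in GFP control and 4160.4, 4632 and 4894 CPM in antigen p23. The means were 4562 ± 372 CPM (SD, n = 3) after antigen p23 dsRNA, and 1319 ± 828 CPM (SD, n = 3) after GFP dsRNA. Its log2 fold change was 1.79 (SE 0.45). The adjusted p was 0.964 in edgeR, which called the gene only when the filter on low counts was left out (adjusted p = 0.00393). HPB47_008346, matched to inhibitor 2 of that animal, had 28.8, 252 and 75.8 against 411, 700.3 and 377 CPM, and serpin B3 match HPB47_002856 had 230.2, 264 and 264 against 326, 383 and 429 CPM. The groups did not overlap in either gene, although GFP control pool 2 was far above the other control pools in HPB47_008346. The leukocyte elastase inhibitor match HPB47_027208, at 2982, 2634 and 5554 against 13510.5, 5295 and 7142 CPM, overlapped by 1 pool. The most abundant serpin per kilobase of coding length, HPB47_012019, had 10644, 11738 and 11992 against 7934, 18397 and 19740.3 CPM, with antigen p23 pool 1 below every control pool. The serpin B12 match HPB47_012790 was wholly lower, at 8.29, 13.8 and 9.82 against 4.79, 0 and 0.309 CPM. The list median moved widely with the pools used. It was 0.06 without antigen p23 pools 1 and 2, over 24 genes, and 1.53 without GFP control pool 2, so its size is uncertain. HPB47_008072 kept a log2 fold change of 1.93 without pools 1 and 2.

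Other inhibitor families were too small or too weak for a statement on the group. Among 3 tested Kunitz inhibitors, a fold of many tick anticoagulants, the weak boophilin match HPB47_003913 had 3.22, 1.73 and 4.30 CPM in GFP control and 8.56, 18.1 and 7.72 CPM in antigen p23, and the abundant one, HPB47_018472, had 1331, 347 and 1419.7 against 1201, 2067 and 926 CPM with overlap. Boophilin is a thrombin inhibitor of cattle ticks. Tick lipocalins, which bind histamine and other host mediators and are mainly salivary, were nearly silent: 1 of 6 genes had a count (HPB47_013470), with 7 counts in GFP control pool 2 and none elsewhere. Thioester proteins of the alpha-2-macroglobulin type, which trap proteases, were high in single pools: HPB47_027039 had 32.7, 279.8 and 4.30 against 1065, 78.4 and 48.2 CPM. Antigen p23 pool 1 and GFP control pool 2 were the high pools here, and all other pools were much lower.

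Genes of acidification and digestion differed by family. The V-type ATPase acidifies the digestive vesicles. Of 12 tested subunits 7 lay above 0, 3 wholly above the controls (25%, against 5.08% of all genes tested) and none wholly below. Their median was 0.24 (0.11 without pools 1 and 2), but -0.16 with DESeq2 and -0.17 without the filter on low counts. Subunit G (HPB47_014707), of the stalk, had 19.6, 18.7 and 24.3 CPM in GFP control and 45.5, 53.1 and 29.6 CPM in antigen p23 (log2 fold change 1.04, SE 0.42), and subunit d (HPB47_007153), which joins the rotor to the membrane ring, had 111, 90.8 and 87.2 against 154, 158 and 118 CPM. A short gene model matched to catalytic subunit A (HPB47_020226) had 150.1, 175 and 183 against 391, 213 and 162 CPM, with pool 3 in the control range. Among the digestive enzymes, 9 cathepsin-type cysteine proteases had a median of 0.35 (0.12 without pools 1 and 2) and none was wholly above or below the controls. Cathepsin L (HPB47_012847), a main haemoglobinase, had 993, 377 and 572 against 1001, 1218 and 655 CPM, and dipeptidyl peptidase 1 (HPB47_017970), the exopeptidase cathepsin C, had 212, 119 and 100.4 against 204, 273 and 192 CPM. The lysosomal aspartic protease match HPB47_005210, of the cathepsin D family, was wholly higher at 13.1, 40.9 and 66.9 against 78.1, 80.2 and 84.00 CPM. The other cathepsin D match, HPB47_007140, had 64.9, 30.6 and 115 against 65.4, 49.6 and 48.8 CPM with overlap, and over the 3 tested aspartic proteases the median was -0.32 (-0.51 without pools 1 and 2). The 5 tested genes of the legumain peptidase family had 4 above 0 at a median of 0.67. The gene below 0, HPB47_007897, was matched to GPI-anchor transamidase and not to legumain. Without pools 1 and 2 the median of the family was 0.69, and without antigen p23 replicate 3 it was 0.03. The 5 serine carboxypeptidases had 4 above 0 at a median of 0.70 (0.88 without pools 1 and 2). Other peptidases stood below 0: 4 of 5 aminopeptidases at a median of -0.34, 3 of 4 metallocarboxypeptidases at -0.42 and 5 of 6 reprolysin and ADAM peptidases at -0.75. Without pools 1 and 2 these medians were 0.38, -0.69 and 0.00. The 8 tested neprilysin-like peptidases were divided equally around 0, at a median of -0.14, and their median ratio in pool 3 was -0.05. Without pools 1 and 2 the list had 29 tested genes, at a median of -2.77. The added genes could pass the filter through a single control pool, so this median is not set against the main one. The 2 astacins had 1 gene on each side. Of 14 tested trypsin-like proteases, 11 lay above 0 with none wholly above, at a median of 0.33 and a median ratio of 0.14 in pool 3. Without pools 1 and 2 the median of this list was -0.20, over 26 genes. The cation-independent mannose-6-phosphate receptor match HPB47_009913, which sorts enzymes to the lysosome, was wholly lower, at 121, 74.3 and 95.8 against 34.2, 54.5 and 60.8 CPM. Of 47 tested genes of endosome and lysosome trafficking, 5 were wholly above (10.6%) and 4 wholly below (8.51%), against 5.08% and 6.54% of all genes tested. Their median was 0.02 (-0.02 without pools 1 and 2).

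Genes matched to the Toll pathway, which senses microbes in arthropods through receptors with a TIR domain, were mostly higher. Of 14 tested Toll and IMD genes 10 lay above 0, with a median of 0.49. Of the 14, 3 were wholly above (21.4%) and 1 wholly below (7.14%), against 5.08% and 6.54% of all genes tested. HPB47_023216, a TIR-domain protein matched to Drosophila Toll on scaffold JABSTQ010009372.1 from 2318551 to 2320891, had 104, 171 and 137 CPM in GFP control and 566, 364 and 207 CPM in antigen p23 (log2 fold change 1.46, SE 0.40, unadjusted p = 0.00525). A further TIR-domain gene, HPB47_000527, had 189, 158 and 215 against 399.8, 283 and 229 CPM, and the weak Toll match HPB47_001261 had 4.14, 1.55 and 4.30 against 9.93, 13.7 and 9.26 CPM. The groups did not overlap in these 3 genes. The receptor match Tollo (HPB47_004501) stood lower instead, at 129, 273 and 78.9 against 51.01, 75.2 and 81.2 CPM, with a slight overlap at pool 3. A peptidoglycan recognition protein match (HPB47_012122), of a family that binds bacterial cell walls, had 152, 291 and 58.3 against 1420.3, 440.2 and 81.5 CPM. Its pool 1 was far above all other pools, pool 2 was above the controls by less, and pool 3 lay in their range. The list was 0.96, 0.24 and 0.26 above the controls in pools 1 to 3, and its median without pools 1 and 2 was -0.07, over 17 genes.

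Lipid and sugar metabolism held single genes that were wholly higher. Of 18 tested genes of phospholipid synthesis 5 were wholly above and 1 wholly below (27.8% and 5.56%, against 5.08% and 6.54% of all genes tested), but the median was -0.06. Of these, glycerol-3-phosphate acyltransferase 4 (HPB47_000526), of the first step, had 19.3, 12.8 and 11.4 CPM in GFP control and 28.1, 30.6 and 25.3 CPM in antigen p23, and the choline-phosphate enzyme CCT (HPB47_000591), which limits the rate of phosphatidylcholine synthesis, had 49.5, 30.2 and 63.6 against 81.8, 67.6 and 72.9 CPM. Without pools 1 and 2 the median of the list was 0.09. A mitochondrial CDP-diacylglycerol synthase match (HPB47_023844), an enzyme on the way to cardiolipin, was too weak to be tested, with 12, 19 and 9 counts in GFP control and 1, 0 and 2 counts in antigen p23. Ethanolamine-phosphate phospho-lyase (HPB47_002299), which breaks down phosphoethanolamine, had 189, 100.3 and 238 against 385, 459 and 363 CPM. A lipase of the pancreatic type (HPB47_001917) had 780.2, 386 and 1656 against 1832, 2567 and 1757 CPM. In both genes the groups were apart, by a narrow gap in the lipase. Glucose-6-phosphatase (HPB47_006720), the last step of glucose release, had 1302, 1987 and 2235 CPM in GFP control and 5280.1, 4289 and 2734 CPM in antigen p23 (log2 fold change 1.16, SE 0.34). Of 28 tested genes of glycolysis and the citric acid cycle 17 lay above 0 and none was apart from the controls, at a median of 0.20 (-0.01 without pools 1 and 2). Of 32 tested genes of the respiratory chain and ATP synthase 25 lay above 0, against 44.0% of all genes tested, at a median of 0.20 (0.09 without pools 1 and 2). Of the 32, 2 were wholly above (6.25%, against 5.08% of all genes tested). The ratio of this list was 0.40, 0.21 and 0.13 in pools 1 to 3, and 17 of its members were in the most abundant class.

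Several proteins hold an NPC1 N-terminal domain, the part of the Niemann-Pick C1 transporter that binds cholesterol in the lysosome. The short gene HPB47_001419, with a coding length of 684 bases and on none of the gene lists, had 186, 463 and 217 CPM in GFP control and 1115, 680.5 and 613 CPM in antigen p23 (log2 fold change 1.47, SE 0.42). The more abundant match HPB47_006008 was the annotated gene with most reads per kilobase of all, at 25259, 1382 and 14911 against 39717, 16926 and 29149.8 CPM. In that gene the groups overlapped, with GFP control pool 2 far below the other pools and GFP control pool 1 above antigen p23 pool 2. These genes are alike and may share reads. The NPC2 match HPB47_001248, the soluble partner of NPC1, had 2245, 1256 and 2480.2 against 2999, 3014 and 3241 CPM. HPB47_011648, a long NPC1 match with the membrane part, had 180.2, 162 and 212 against 218, 309 and 246 CPM. Both were wholly higher, the second by a narrow gap. Over the 17 tested genes of sterol and lipid transfer the median was 0.05 (-0.15 without pools 1 and 2), and it was below 0 in 10 of 14 alternatives. Of the 17, 3 were wholly above (17.6%) and 1 wholly below (5.88%), against 5.08% and 6.54% of all genes tested. Ferritin, the iron store, was higher in 1 of 2 genes: the soma ferritin match HPB47_026848 had 2385, 2177 and 2821 against 4303, 3066 and 3107 CPM.

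An abundant gene with one of the clearest separations was HPB47_014374, a long protein whose best match is the receptor phosphatase PTPRQ. The annotation names fibronectin type III domains in it and no phosphatase domain. It lies on scaffold JABSTQ010002724.1 from 182763 to 219973 and had 3254, 5609 and 1775 CPM in GFP control and 21079.5, 13105 and 8301 CPM in antigen p23. Pool 1 was the highest and pool 3 still above the highest control. Its log2 fold change was 2.00 (SE 0.49). The adjusted p was 0.964 in edgeR, 0.0691 in DESeq2 and 0.00393 in edgeR without the filter on low counts. Without pools 1 and 2 the log2 fold change was 1.26. Its coding length of 5364 bases places it in the class of longest genes, which as a whole stood lower. Cytoskeletal actin was higher as well: actin-5C match HPB47_002340 had 6192, 6536 and 6812 CPM in GFP control and 13332, 10508 and 8821 CPM in antigen p23, and actin-2 match HPB47_002339, which lies beside it and may share reads with it, 4085, 4521 and 4143 against 5924, 6109.9 and 6476 CPM. The actin match HPB47_025753 did not separate the groups, at 13408, 6199 and 13673 against 10455, 14034 and 13676 CPM.

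Among transcription factors, the clock protein match clockwork orange (HPB47_027004), a repressor of circadian genes in Drosophila, had 543, 654 and 573 CPM in GFP control and 1100.3, 873 and 863 CPM in antigen p23. It was wholly higher, as was HES-1, a repressor that Notch signalling turns on (HPB47_006896), with 63.98, 76.5 and 68.5 against 262, 188 and 177 CPM (adjusted p = 0.0202 in DESeq2 and 0.964 in edgeR). The LIM-domain protein match rhombotin-1 (HPB47_025315), which bridges DNA-binding factors, had 155, 67.5 and 80.7 against 292, 216 and 287 CPM. In all 3 genes pool 3 lay clear of the controls. Of the 34 tested factors with a homeobox, a basic helix-loop-helix domain or a nuclear receptor fold, however, 23 lay below 0. Of the 34, 3 were wholly above and 3 wholly below (8.82% each, against 5.08% and 6.54% of all genes tested). The median was -0.25 (-0.50 over 54 genes without pools 1 and 2). The ecdysone receptor match (HPB47_024852), which binds the moulting hormone, was wholly lower at 22.3, 20.9 and 28.9 against 8.22, 19.2 and 16.4 CPM. The zinc finger homeobox 3 match HPB47_006535, a long gene, was lower by a narrow gap, at 196, 175 and 190.1 against 74.6, 129 and 171 CPM.

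The receptor Notch itself stood lower. HPB47_025776, matched to Drosophila Notch on scaffold JABSTQ010009654.1 from 589015 to 624649, had 46.3, 46.3 and 31.6 CPM in GFP control and 2.74, 10.2 and 19.8 CPM in antigen p23 (log2 fold change -1.92, SE 0.66, unadjusted p = 0.0169). No pool of one group reached the other, and pool 3 was nearest to the controls. Its coding length of 7113 bases is in the longest class. Of the 11 tested genes of the Notch list only Notch and HES-1 separated the groups, in opposite directions, and the list median was -0.22 (-0.34 without pools 1 and 2). The DNA-binding effector suppressor of hairless (HPB47_005748) had 54.5, 65.3 and 58.3 against 52.03, 61.8 and 39.5 CPM, with overlap. Scabrous (HPB47_002307), a secreted protein that acts with Notch in the Drosophila eye and is not on the list, had 8.98, 10.9 and 15.04 against 0, 0 and 1.85 CPM. Without pools 1 and 2 the log2 fold change of Notch was -1.04 and that of HES-1 1.37, so both kept their direction with pool 3 alone.

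**Figure D4:**
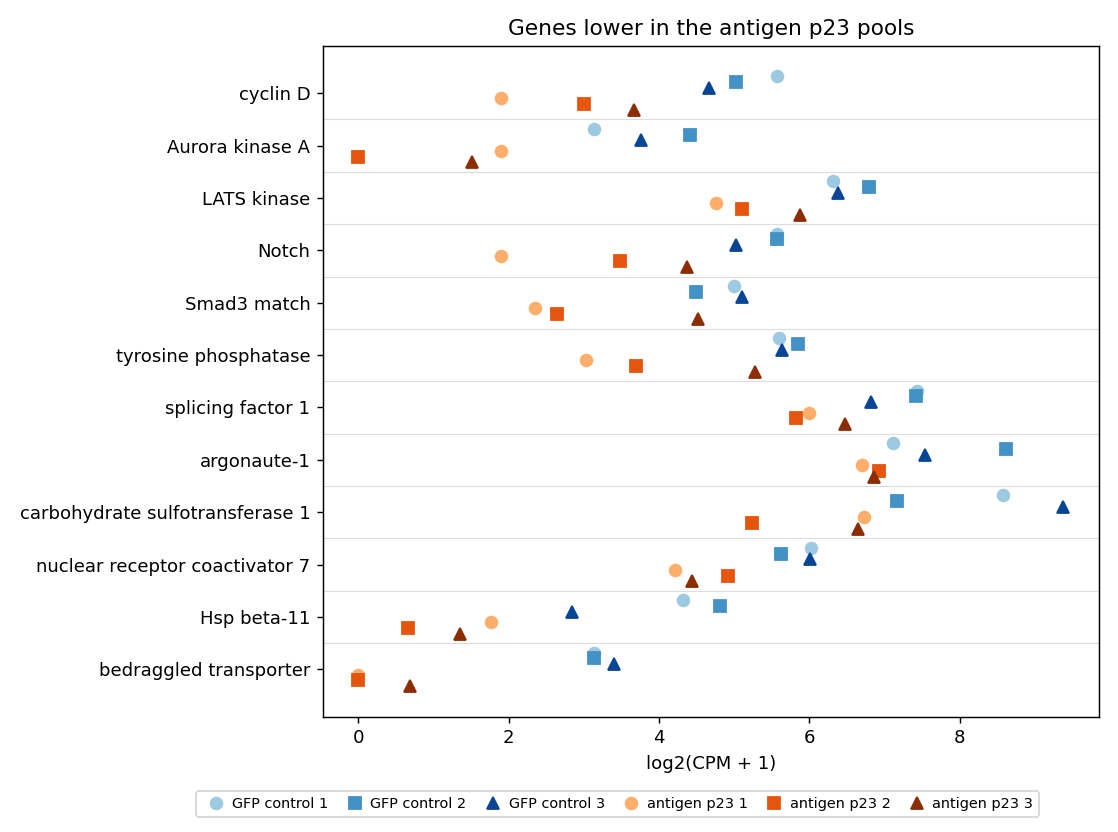
Level of 12 genes in each pool, as log2(CPM + 1), with GFP control pools in blue and antigen p23 pools in orange to brown. In 11 of the 12 every antigen p23 pool lay below every control pool, the exception being the Smad3 match, where pool 3 reached the lowest control.

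Protein kinases had more genes below 0 than above, as had all tested genes, of which 3576 of 6381 lay below 0. Of 126 tested protein kinases, 83 lay below 0 and 13 wholly below the controls (10.3%, against 6.54% of all genes tested), with none wholly above. The weakest class had 11.2% wholly below and the class of longest genes 8.78%, and 35 of the 126 belonged to the weakest class. The median was -0.23, with -0.62, -0.18 and 0.00 in pools 1 to 3 and -0.09 without pools 1 and 2, close to the -0.11 of all genes tested in that setting. Of the 126, 57 belonged to the class of longest genes. The kinases were thus lower chiefly in pool 1, where long genes as a whole stood lower, and the part of coding length was not tested. The LATS kinase match (HPB47_011909), the kinase of the Hippo pathway that restrains growth, had 78.3, 109 and 82.6 CPM in GFP control and 26.02, 33.2 and 57.4 CPM in antigen p23 (log2 fold change -1.21, SE 0.40). The kinase matched to MAP3K13 (HPB47_000550), of a family that feeds stress kinase cascades, had 27.2, 30.9 and 39.9 against 14.04, 12.2 and 21.3 CPM. The insulin receptor match (HPB47_023990), the receptor for nutrient signals, had 12.4, 11.6 and 12.9 against 9.24, 6.71 and 9.57 CPM. In these 3 genes pool 3 was lower than every control pool too. Of 20 tested protein tyrosine phosphatases 16 lay below 0, at a median of -0.37 (-0.17 without pools 1 and 2), and the PTPN12 match HPB47_015486, which acts on the cytoskeleton, had 47.4, 56.5 and 48.5 against 7.19, 11.95 and 37.7 CPM.

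The TGF-beta pathway, whose ligands bind receptor kinases that activate Smad transcription factors, had 14 tested genes, 11 of them below 0, with a median of -0.58. None was wholly above or below the controls. The median ratio was -1.26, -0.28 and -0.08 in pools 1 to 3, so that pool 1 carried most of it, and the median without pools 1 and 2 was -0.24. The receptor-regulated Smad3 match (HPB47_003496) had 30.8, 21.4 and 33.5 CPM in GFP control and 4.11, 5.25 and 21.9 CPM in antigen p23 (log2 fold change -1.45, SE 0.69). Pools 1 and 2 were far below the controls and pool 3 lay within their range. The type 2 receptor match (HPB47_004609) had 103, 95.2 and 187 against 29.1, 72.9 and 120.1 CPM, with the same overlap at pool 3, and the ligand matched to bone morphogenetic protein 7 (HPB47_023020) 33.1, 17.3 and 42.7 against 7.87, 23.3 and 26.6 CPM. For the Wnt pathway, 10 of 12 tested genes lay below 0 at a median of -0.39 (-0.43 without pools 1 and 2), again with none apart from the controls.

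Genes of cell division included a cyclin and a mitotic kinase that were wholly lower. Cyclin D3 match HPB47_007906, which drives entry into the cell cycle and lies on scaffold JABSTQ010011133.1 from 204539 to 264426, had 46.3, 31.4 and 24.3 CPM in GFP control and 2.74, 7.00 and 11.7 CPM in antigen p23. Its log2 fold change was -2.24 (SE 0.62, unadjusted p = 0.00548), and -1.51 without pools 1 and 2. Aurora kinase A (HPB47_014629), which builds the mitotic spindle, had 34, 117 and 41 counts in GFP control and 8, 0 and 6 counts in antigen p23 (log2 fold change -3.14, SE 1.13). The Bloom helicase match (HPB47_017632), a DNA repair enzyme outside the list, had 20.7, 81.9 and 19.04 against 3.77, 11.1 and 14.5 CPM and was also wholly lower. Aurora kinase A had at most 8 counts in any antigen p23 pool, so its fold change is imprecise. Over the 34 tested genes of DNA replication and the cell cycle, 23 lay below 0 and 2 wholly below (5.88%, against 6.54% of all genes tested), at a median of -0.30. The ratio was -0.08, -0.74 and 0.03 in pools 1 to 3, so that pool 2 differed from the rest, and the median without pools 1 and 2 was -0.03.

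Genes of RNA processing followed. Of 52 tested splicing factors 6 were wholly above (11.5%, against 5.08% of all genes tested and 10.8% of the most abundant class) and 2 wholly below (3.85%, against 6.54%). The median was 0.16 (0.00 without pools 1 and 2), and 20 of the 52 belonged to the most abundant class. Splicing factor 1 (HPB47_008924), which recognizes the branch point, had 171, 169.6 and 112 CPM in GFP control and 62.6, 55.7 and 87.7 CPM in antigen p23 (log2 fold change -1.14, SE 0.34). The serine/arginine-rich factor match SRSF2 (HPB47_018952), which promotes exon inclusion, had 394, 311 and 362 against 432, 523 and 566 CPM, and subunit 2 of splicing factor 3A (HPB47_025224) 59.6, 68.04 and 68.2 against 174, 109 and 72.3 CPM. The first was wholly lower and the others wholly higher, the last by a narrow gap. Of 28 tested genes of nuclear import and export none was apart from the controls, at a median of -0.04 (0.03 without pools 1 and 2). The machinery of RNA interference, on which the silencing itself relies, had 18 tested genes, 11 of them below 0. Their median was -0.32 (-0.62 over 21 genes without pools 1 and 2), and over the 18 genes the median ratio in pool 3 was -0.26. Argonaute-1 (HPB47_001158), which in Drosophila works mainly with microRNAs, had 138, 391 and 184 CPM in GFP control and 103, 121 and 115 CPM in antigen p23, a log2 fold change of -1.07 (SE 0.41). Its antigen p23 pools were close to each other and below all controls, of which GFP control pool 2 was by far the highest. Argonaute-2 (HPB47_016419), the slicer of the RNA interference pathway, had 102, 39.03 and 45.1 against 9.24, 1.46 and 54.7 CPM, so pools 1 and 2 were low and pool 3 was within the control range. A Dicer-1 match (HPB47_008640), the enzyme that cuts microRNA precursors in Drosophila, was the single gene of the list wholly above the controls, at 144, 138 and 146 against 173, 184 and 152 CPM. Both groups had received dsRNA.

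**Figure D5:**
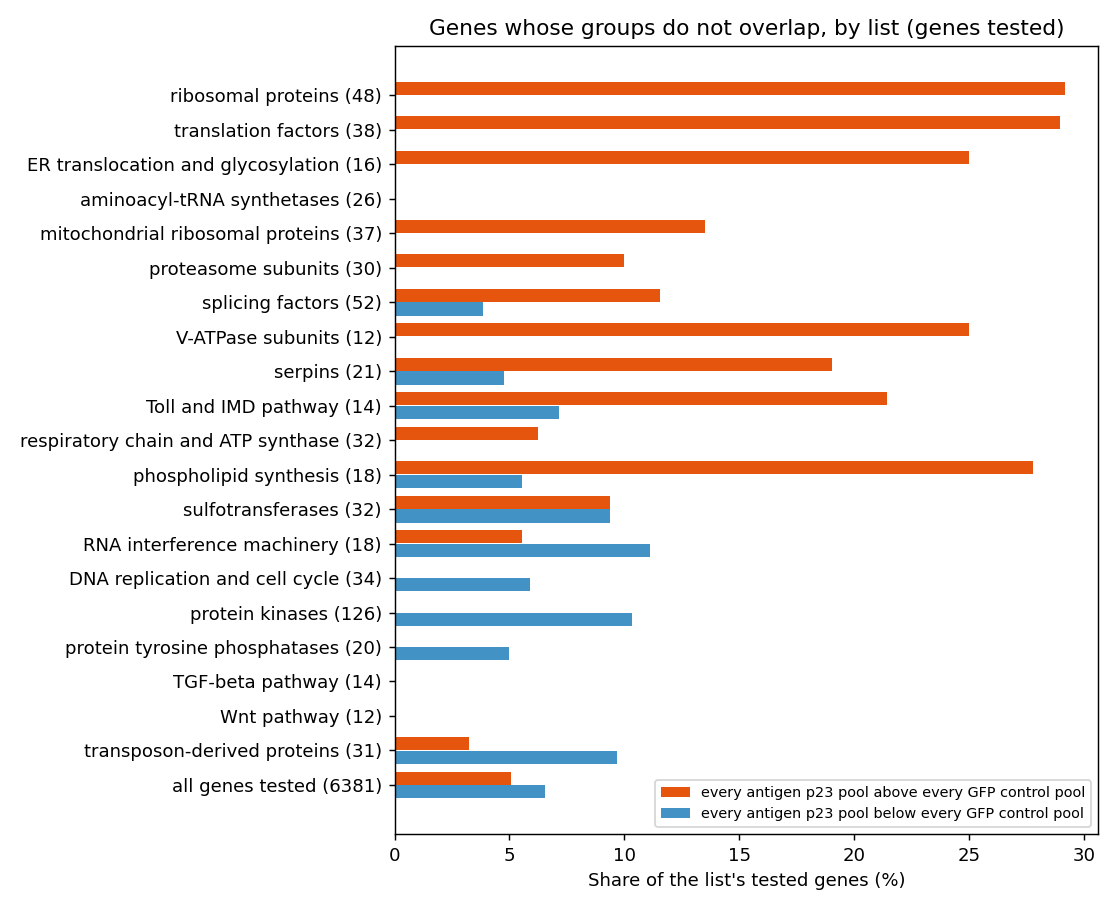
Share of each list's tested genes for which every antigen p23 pool lay above (orange) or below (blue) every GFP control pool, with the number tested in brackets. Over all 6381 genes the shares were 5.08% above and 6.54% below. Ribosomal proteins had 29.2% above and translation factors 28.9%, and protein kinases had 10.3% below and none above. The most abundant class of genes had 10.8% above, the weakest class 11.2% below and the class of longest genes 8.78% below.

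Sulfotransferases, which add sulfate to small molecules or to sugar chains, had 32 tested genes, of which 3 were wholly above and 3 wholly below the controls (9.38% each, against 5.08% and 6.54% of all genes tested). The sulfotransferase 1B1 match HPB47_026860 had 168, 70 and 331 counts in GFP control and 0, 0 and 1 counts in antigen p23. It had the smallest p of all genes (unadjusted p = 6.05e-05). The adjusted p was 0.386 in edgeR, 4.33e-06 in DESeq2 and 3.48e-09 in edgeR without the filter on low counts. The ssu-1 match HPB47_008141 had 9.21, 14.9 and 128 CPM in GFP control and 2.40, 0 and 0.309 CPM in antigen p23, and DESeq2 called it (adjusted p = 0.00111) while edgeR did not (adjusted p = 0.964). Other ssu-1 matches stood higher: HPB47_023766 had 283, 290.5 and 284 CPM in GFP control and 637, 485 and 462 CPM in antigen p23, HPB47_027147 435, 478 and 339.6 against 676, 1290.1 and 598 CPM, and HPB47_027456 16.3, 20.4 and 24.6 against 50.7, 32.7 and 36.7 CPM. These genes are alike and may share reads. The control pools of HPB47_023766 agreed to within a few CPM and every antigen p23 pool was higher (log2 fold change 0.89, SE 0.26). A carbohydrate sulfotransferase 1 match (HPB47_007785), of the kind that sulfates sugar chains in the Golgi and outside the list, had 379.5, 143 and 663 against 105, 36.7 and 99.4 CPM and was wholly lower (log2 fold change -2.30, SE 0.59, -1.98 without pools 1 and 2). The median of the 32 genes was 0.32, and their median ratio in pool 3 was -0.20. Without pools 1 and 2, when 47 genes of the list were tested, the list median was -0.46. It was also below 0 with DESeq2 and without the filter on low counts. In other detoxification families, of 13 genes with a glutathione S-transferase domain 1 was wholly above (elongation factor 1-gamma) and 1 wholly below (a gene model matched to rhoA), and of 19 cytochrome P450 genes 2 were wholly below and none above, with 10 of the 19 among the weakest class. The TLD-domain protein match nuclear receptor coactivator 7 (HPB47_025063), of a family that protects cells from oxidative damage, had 63.98, 48.2 and 63.6 against 17.5, 29.2 and 20.7 CPM, wholly lower with -1.48 as its log2 fold change without pools 1 and 2.

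Lists of transporters and receptors differed in the share of genes that lay apart from the controls. Of 22 tested amino acid transporters 3 were wholly below (13.6%) and 1 wholly above (4.55%), against 6.54% and 5.08% of all genes tested. The weakest class had 11.2% wholly below and held 7 of the 22. The transporter match bedraggled (HPB47_004761), of the sodium-dependent neurotransmitter family, had 34, 45 and 31 counts in GFP control and 0, 0 and 2 counts in antigen p23. From counts summed over the pools its level was 39.4-fold lower, with a 95% counting interval of 10.6 to 329 that leaves out the spread between pools. The adjusted p was 0.964 in edgeR. Its counts were absent in pools 1 and 2, where many other genes were missing too. Of 66 tested major facilitator transporters 2 were wholly above (3.03%) and 4 wholly below (6.06%), close to the 5.08% and 6.54% of all genes tested, and of 28 ABC transporters 4 were wholly above and 4 wholly below (14.3% each). The medians of the 3 lists were -0.04, -0.03 and -0.02. Without pools 1 and 2 they were -0.19, -0.34 and -0.07, over 31, 86 and 35 genes. Multidrug resistance-associated protein 1 (HPB47_022813), an exporter of conjugated compounds, had 384, 240.2 and 279 CPM in GFP control and 144, 207 and 224 CPM in antigen p23, the lysosomal cobalamin transporter ABCD4 (HPB47_012449) 1520.4, 1081 and 1778 against 1807, 1998 and 1964 CPM. The first lay below and the second, narrowly, above all control pools. Of 25 tested G protein-coupled receptors 3 were wholly below (12%) and 1 wholly above (4%), that 1 being a gene model that also holds a ubiquitin-conjugating enzyme (HPB47_006151). Of the 25 receptors, 11 belonged to the weakest class, with its 11.2% wholly below. The median of these 25 receptors was 0.07, and their median ratio in pool 3 was -0.08. Without pools 1 and 2 the list median was -0.74, over 52 genes, where genes could pass the filter through a single control pool. The allatostatin-A receptor match (HPB47_005012), a neuropeptide receptor, was too weak to be tested, with 10, 17 and 1 counts in GFP control and 0, 0 and 0 counts in antigen p23. A control pool also had only a single count, so the groups are barely apart at this depth. Without the filter on low counts, when weaker genes entered, the medians of these 4 lists ran from -1.73 for G protein-coupled receptors to -0.78 for ABC transporters.

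Proteins of the chitin matrix and genes of mobile elements differed mainly by pool. The midgut lays a chitin-containing peritrophic matrix around the blood meal. Among 12 tested chitin-binding proteins 10 lay below 0 at a median of -0.91, yet none was apart from the controls. Their ratio was -0.73, -2.27 and 0.01 in pools 1 to 3. Without pools 1 and 2 the median was -0.68, over 24 genes. The 13 tested cuticle proteins had -0.22, -2.24 and 0.43, so pool 2 was low in both lists and pool 3 was not. Their median was -0.32 (-0.21 over 20 genes without pools 1 and 2). Cuticle protein match HPB47_025107 had 760.2, 767 and 265 CPM in GFP control and 169, 69.1 and 665 CPM in antigen p23. For the 31 tested genes derived from transposons the median was -0.59 (-0.35 without pools 1 and 2), with -0.65, -0.70 and -0.29 in pools 1 to 3. Of the 31, 1 was wholly above (3.23%) and 3 wholly below (9.68%), against 5.08% and 6.54% of all genes tested. The weakest class had 11.2% wholly below and held 8 of the 31. A gene with a transposase-type endonuclease domain (HPB47_010649) had 23.5, 85.1 and 31.9 against 11.6, 6.71 and 16.7 CPM, and another with a reverse transcriptase domain (HPB47_027710) 122, 73.4 and 134 against 199.6, 189 and 291 CPM. The antigen p23 pools lay wholly below in the first and wholly above in the second.

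The antigen p23 pools also differed among themselves more than the control pools did. The median SD of a tested gene on the log2 scale was 0.67 in antigen p23 and 0.42 in GFP control. Pool 1 lay above all control pools in 29.1% of tested genes and below them in 39.9%, pool 2 in 26.6% and 39.5%, and pool 3 in 21.3% and 22.4%. Pool 3 thus left the control range less often, and about equally in both directions. Several genes were high in a single antigen p23 pool. An acetylcholinesterase match (HPB47_023047), of the carboxylesterase family, had 14.5, 12.1 and 46.4 CPM in GFP control and 38.7, 55.1 and 337 CPM in antigen p23, with the peak in pool 3. A gene with a CRAL/TRIO domain, a fold that carries retinoids and tocopherol (HPB47_024734), had 5.29, 18.7 and 3.68 against 541, 30.9 and 6.79 CPM, with the peak in pool 1. A legumain, an asparagine-specific cysteine protease (HPB47_028388), had 386, 419 and 359 against 404, 2158 and 536 CPM, with the peak in pool 2, and may share reads with other legumains. For such genes the group mean describes none of the pools.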

How the data were processed

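RNA-seq libraries of 3 antigen p23 pools and 3 GFP control pools were compared, grouped by their sample labels. The authors aligned the reads with Bowtie2 2.5.3 to the *I. persulcatus* assembly and deposited raw counts per gene made with featureCounts; no source used here gives the strand or multi-mapping setting. The deposited table also holds gene annotation and the other silenced group, which entered only 1 alternative fit. From the counts, edgeR 4.0.16 (R 4.3.3, limma 3.58.1) was run with filterByExpr, TMM scaling and the robust quasi-likelihood F test with group as the only term, and p-values were adjusted by Benjamini-Hochberg over all 6381 genes tested. CPM were scaled with the TMM library sizes. Ratios of single pools are log2(CPM + 1) minus the mean of the GFP control pools. Totals from 3303358 to 4681133 counts set the precision, and counting intervals cover counting error only. No source states that the pools came from separate experiments, so p-values measure the spread between these pools.

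Gene lists were built from Pfam domains and Swiss-Prot names. Members, lists and tests were chosen with earlier results of these data known, and the name patterns of 4 lists (Wnt, Notch, nucleocytoplasmic transport and ribosomal proteins) that had caught unrelated names were corrected after their members had been seen. Genes were drawn from a rule: the 15 annotated genes with the smallest p in each direction, up to 4 genes with the smallest p in each list, genes called by an alternative, the 4 genes that the study measured by RT-qPCR, the 10 annotated genes with the highest level per kilobase, and, in lists with no tested gene, the 2 with most counts. The text gives a part of the genes this rule yields and others chosen after their values were seen. Coding lengths hold no UTRs, since 97.9% are multiples of 3.

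Alternatives were DESeq2 1.42.0, its size factors in edgeR, no filter, a minimum of 10 counts per library, a joint fit of the 9 libraries, the replicate number as a block, dispersions without the robust option, and leaving out each pool. The non-robust fit and leaving out antigen p23 pools 1 and 2 together were added after seeing the data. The latter has 1 antigen p23 pool, which is assumed to vary like the controls. The code was tested on simulated data.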

Additional observations from a re-analysis of the deposited data

How the results depend on the processing

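No gene passed the adjusted threshold in edgeR, whereas DESeq2 called 3 genes higher and 3 lower and edgeR without the filter on low counts called 4 and 1. At an unadjusted p of 0.05 or less, the 99 genes higher became 149 with DESeq2, 167 without the filter and 47 without antigen p23 replicates 1 and 2. The 109 genes lower became 289 with DESeq2, 513 without the filter and 216 when all 9 libraries were fitted together. The cause of these shifts was not tested. Leaving out 1 replicate gave 67 to 174 genes higher and 92 to 580 lower, the highest of both without antigen p23 replicate 3. The 417 genes wholly below the controls became 908 without the filter, when more genes were counted, and 247 with at least 10 counts in every library, when fewer were. Same-numbered pools were not more alike: their deviations from the group means correlated at -0.173, -0.051 and -0.0433 across genes, and those of differently numbered pools at -0.113 to 0.192. Deviations from a mean of 3 pools depend on each other, so this check cannot settle whether the samples were paired. With the replicate number as a block 57 genes were higher and 98 lower, with none past the adjusted threshold.

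Of 1470 pairs of a named gene and an alternative, 11 passed the threshold only under the alternative, 10 had the other direction and the rest kept both. Without antigen p23 replicates 1 and 2 the log2 fold change was -0.997 for HPB47_012122, -0.15 for HPB47_018472, -0.045 for HPB47_020226, -0.41 for HPB47_024734, 0.18 for HPB47_025107 and -1.08 for HPB47_027039. Leaving out 1 replicate gave -0.71 to 0.19 for HPB47_007140, -0.019 to 0.41 for HPB47_015081, -0.083 to 0.37 for HPB47_025753 and -0.73 to 4.403 for HPB47_027039. Of 69 list medians 27 kept their sign under every alternative, among them those of ribosomal proteins, translation factors, translocation genes, serpins, protein kinases and the TGF-beta and Wnt pathways. The median of all genes tested was also below 0 under every alternative, at -0.45 to -0.03. A list median that stayed below 0, such as that of protein kinases, is therefore not particular to its list by sign alone. Library depth limits the weak genes: 6381 of the 12129 genes with a count could be tested.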

Other observations

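The list of enzymes that cut chitin or related sugars had 51 genes, which summed to 598, 638 and 706 CPM in GFP control and 770, 1181 and 1088 CPM in antigen p23. That difference rested on a single gene, the chitinase-3-like match HPB47_003950: without it the sums were 316, 407 and 411 CPM in GFP control and 274, 386 and 329 CPM in antigen p23, and the groups overlapped. The lysosomal di-N-acetylchitobiase match (HPB47_010128), which trims the chitobiose core of glycoproteins, had 27.2, 19.9 and 25.5 CPM in GFP control and 34.9, 46.9 and 42.3 CPM in antigen p23, and every antigen p23 pool was higher. Over the 12 tested genes of the list the median log2 fold change was -0.40 (-0.22 over 22 genes without antigen p23 pools 1 and 2), against -0.10 over all genes tested.

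Of 26 tested mitochondrial carriers 8 lay above 0 and 18 below, and none was apart from the controls, at a median of -0.10 with and without antigen p23 pools 1 and 2. SLC25A44 (HPB47_025493), which carries branched-chain amino acids, had 124.3, 138 and 146 CPM in GFP control and 130.4, 239 and 259.7 CPM in antigen p23, with pool 1 in the control range. Histone H2AX (HPB47_015081), a core histone variant of chromatin repair, had 1444, 1489 and 1417 CPM in GFP control and 2379.9, 1374 and 1484 CPM in antigen p23, and only pool 1 was higher than every control pool. Of 12 tested protein disulfide isomerases 1 was wholly below (8.33%, against 6.54% of all genes tested) and none wholly above. That gene, DNAJC10 (HPB47_011093), which reduces disulfide bonds in the endoplasmic reticulum, had 81.5, 64.2 and 54.0 CPM in GFP control and 46.2, 23.3 and 50.6 CPM in antigen p23.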
